A study of Mus musculus with 18 samples.

Results

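Phase II conjugation attaches a large polar group to a drug, hormone, pigment or reactive by-product so that the cell can export it. Glutathione S-transferases (GST) attach glutathione, UDP-glucuronosyltransferases (UGT) attach a sugar acid taken from UDP-glucuronic acid, and sulfotransferases (SULT) attach sulfate taken from the donor PAPS. The hepatocyte is the main site of all 3 reactions, and their products leave through transporters into bile or blood. The GST, UGT and SULT genes of the mouse were followed here in the livers and pancreata of mice with disrupted Otub2, which encodes a deubiquitinase. The genes were chosen by symbol alone: classes a, k, m, o, p, t and z of the cytosolic and mitochondrial GST, families 1 to 3 of the UGT, and all numbered SULT. This gave 64 of the 55291 genes listed, with 22 GST, 21 UGT and 21 SULT genes, and no measured value entered the choice.

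Liver came from 2 mice labelled OTUB2 +/+ (WT) and 5 labelled OTUB2 +/- (HET), and no OTUB2 -/- liver was analysed here. Pancreas came from 3 WT (2 male, 1 female), 5 HET (3 male, 2 female) and 3 OTUB2 -/- (HOM, all male) mice. The labels give no strain, age, liver sex or treatment, and do not say how the allele was made or whether each library is a separate animal. If some are not, the p-values measure only the spread between samples. Whole-tissue RNA was counted at the 3′ end of transcripts (bulk MARS-seq), so a count does not scale with transcript length and levels can be set side by side between genes. Levels are counts per 1000000 counts of the library (CPM). In bulk tissue, fewer cells of a type and less RNA per cell cannot be told apart.

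Depth limited what could be seen. The livers held 155201 to 1686234 counts and the pancreata 49502 to 1326541. The floor of 3 counts stood at 1.78 CPM in the deepest liver and 19.3 CPM in the shallowest, and reached 60.6 CPM in the shallowest pancreas. Otub2 was too low to check the liver labels, with 1 and 0 counts in WT and 0 to 2 in HET. In the pancreas it had 3, 4 and 3 counts in WT against 1 count in 1 of 5 HET and 1 of 3 HOM libraries. Hepatocyte markers summed to 83896 to 102609 CPM in every liver, and the 7 islet markers were at 0 there.

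Some libraries stood apart and are followed through the results. Liver HET 5 was the deepest, had no counts of the repeat-derived transcript Gm10800 (854 to 1944 CPM in the other 6 livers), and had the highest sum of the pericentral hepatocyte markers (10961 against 4104 to 7231 CPM). Livers HET 2 and HET 3 had the highest sums of the acute-phase genes, 47962 and 77441 CPM against 17544 to 28689 CPM in the other 5. Malat1, a nuclear RNA, was at 367 and 1635 CPM in the WT livers and at 140 to 250 CPM in all 5 HET livers. Pancreata HET 11 and HET 16 held 228516 and 192643 CPM of stomach mucosa markers, against at most 25575 CPM in the other 9.

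In the liver, the conjugating enzymes were mainly GST. The 22 GST genes summed to 7158 and 6252 CPM in the WT livers and to 5281, 3985, 4038, 5498 and 7623 CPM in HET 1 to HET 5. The mean was 6705 ± 641 CPM in WT (SD, n = 2) and 5285 ± 1480 CPM in HET (SD, n = 5), and the groups overlapped because HET 5 had the highest sum of all. Livers HET 2 and HET 3, the livers with the high acute-phase sums, had the lowest GST sums; the part of the acute-phase response in this was not tested. The UGT genes summed to 219 and 120 CPM in WT and 302, 308, 151, 170 and 356 CPM in HET, a mean of 169 ± 70.3 CPM (SD, n = 2) against 257 ± 91.1 CPM (SD, n = 5). The SULT genes summed to 200 and 163 CPM in WT and 214, 101, 151, 52.9 and 340 CPM in HET, a mean of 182 ± 25.7 CPM (SD, n = 2) against 172 ± 111 CPM (SD, n = 5). For both smaller families the groups overlapped, and HET 5 was again the highest liver.

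**Figure D1:**
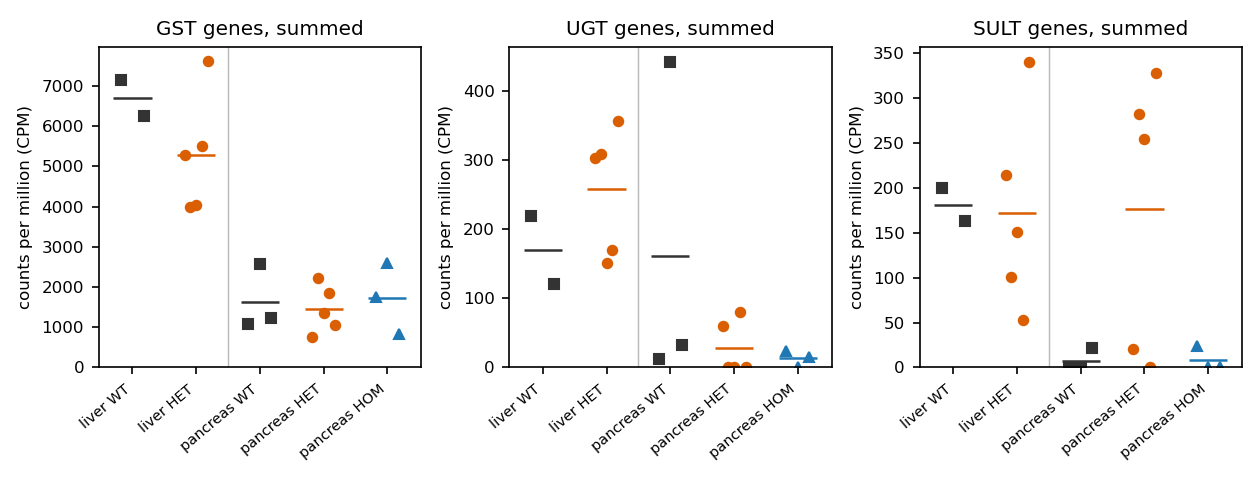
Summed CPM (y axis) of the GST, UGT and SULT genes in each library, by tissue and genotype; each point is 1 library and each horizontal bar a group mean. Liver GST sums run from 3985 to 7623 CPM with overlapping genotypes, and pancreas GST sums from 747 to 2605 CPM.

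Which genes carried these sums was uneven. Of the 64 genes, 38 had at least 1 count in a liver and 25 were counted in every liver. The other 26 were at 0 in all 7 livers, which over their 4163558 counts allows up to 0.721 CPM. Those at 0 were 2 GST genes (Gsto2 and Gstt4), 11 UGT genes (8 of the Ugt1a genes, Ugt2a1, Ugt2a2 and Ugt2b37) and 13 SULT genes. The filter on low counts left 24 genes to test, namely 17 GST, 5 UGT and 2 SULT genes, and 14 counted genes did not reach it.

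Part of this pattern has to be read with the sequences at the 3′ end, where MARS-seq reads fall. The 9 Ugt1a genes start at different first exons along chr1:88055388-88220002 (GRCm38, plus strand) and share their last exons. In these livers only Ugt1a6a of the Ugt1a genes was counted, with 5 counts in all. Ugt1a1, the bilirubin-conjugating enzyme, was at 0 in all 7. The counting method for reads that match several genes is not known from the labels or files, so a count of 0 does not measure the transcript for the 8 Ugt1a genes whose 3′ windows all occur in another member. Ugt1a7c shares none of its 270 windows; it was at 0 in every liver.

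The class pi GST genes lie side by side on chr19 and show the same limit for 1 of their pairs. Their last 60 coding bases, from the GENCODE M21 transcripts, are printed here to show which members a 3′ read can separate. Gstp1 and Gstp2 are identical there, whereas Gstp3 differs from them at 25 positions. In these lines a capital marks a base that differs from the first sequence of its set.
Gstp1: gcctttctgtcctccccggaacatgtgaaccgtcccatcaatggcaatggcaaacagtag
Gstp2: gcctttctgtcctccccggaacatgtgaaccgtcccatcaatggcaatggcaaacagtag
Gstp3: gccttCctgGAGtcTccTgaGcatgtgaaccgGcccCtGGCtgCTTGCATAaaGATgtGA
Gstp1 had 965 counts over the 7 livers, Gstp2 had 1 and Gstp3 had 129, so the split between Gstp1 and Gstp2 is uncertain while Gstp3 is told apart by sequence. In the class mu cluster on chr3 the coding ends also differ, at 17 positions between Gstm1 and Gstm4 and at 19 between Gstm1 and Gstm7. Gstm3 is nearer to Gstm1: of 270 windows of 31 bases in the last 300 transcript bases of Gstm1, 127 (47.0%) also occur in Gstm3. Reads from the Gstm1 end can thus be told apart from Gstm3 only in part. Of the 270 windows at the Gstm3 end, 0 occur in another member.
Gstm1: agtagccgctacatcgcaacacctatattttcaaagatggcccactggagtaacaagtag
Gstm4: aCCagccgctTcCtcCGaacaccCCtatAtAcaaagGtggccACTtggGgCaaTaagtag
Gstm7: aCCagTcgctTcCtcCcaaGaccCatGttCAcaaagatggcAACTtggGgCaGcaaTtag
Over the last 300 transcript bases, compared in windows of 31 bases, 12 of the 64 genes had every window in another member and 38 had none. The 12 were 8 of the Ugt1a genes, Gstp1, Gstp2, Ugt2a1 and Ugt2a2.

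Gstm1 (chr3:108012255-108017973, minus strand), a class mu enzyme that conjugates many electrophiles, was the highest of all 64 genes. It stood at 3415 and 3348 CPM in the WT livers and at 1614, 1374, 1530, 2282 and 3033 CPM in HET 1 to HET 5. All 5 HET livers lay below both WT livers, and HET 5 came closest to them. The mean was 3381 ± 47.4 CPM in WT (SD, n = 2) and 1967 ± 690 CPM in HET (SD, n = 5). The log2 fold change of HET over WT was -0.71 ± 0.29 (SE; 95% interval -1.33 to -0.09), which did not pass the threshold of 0.05 after adjustment over all genes (edgeR quasi-likelihood test, adjusted p = 0.416). Without HET 5 the log2 fold change was -0.89 with an adjusted p of 0.0796.

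The difference in the GST sum was carried by Gstm1, while the other 21 GST genes had no steady direction as a sum. The HET minus WT difference was -1420.3 CPM for all GST genes, -1415 CPM for Gstm1 and -5.41 CPM for the rest. With each liver left out the Gstm1 part ran from -1681 to -1267 CPM. The rest became 414 CPM without WT 1, -425 CPM without WT 2 and -323 CPM without HET 5, each smaller than the SD of that sum among the 5 HET livers (853 CPM). These splits were chosen after seeing the data. Gstm1 made up 47.7% (Wilson 95% interval 44.8 to 50.6) and 53.5% (51.4 to 55.7) of the GST counts in the WT livers. In HET 1 to HET 5 it made up 30.6%, 34.5%, 37.9%, 41.5% and 39.8%, all below both WT values. These intervals cover counting error only. The share was examined after the levels had been seen and is given without a test.

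**Figure D2:**
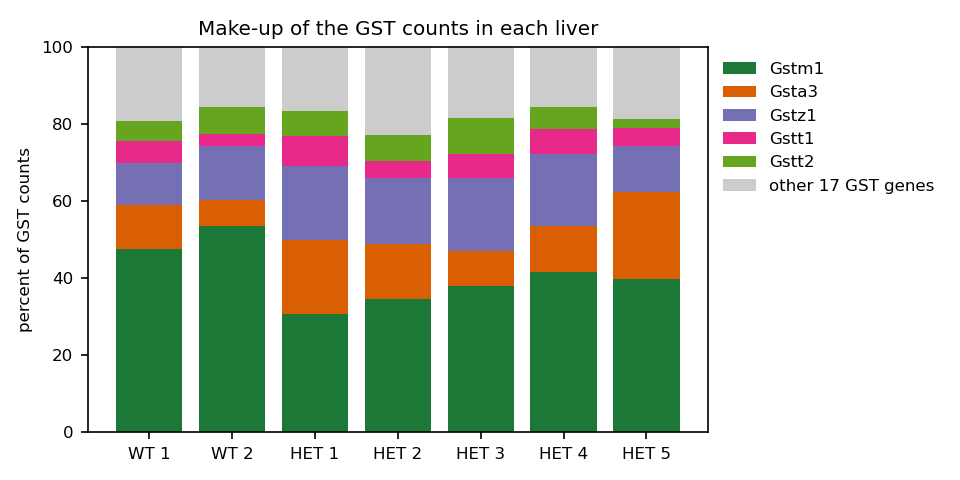
Percent of each liver's GST counts (y axis) taken by the 5 most abundant GST genes and by the other 17, with 1 stacked bar per liver (x axis). The Gstm1 part is 47.7% and 53.5% in the WT livers and 30.6% to 41.5% in the HET livers.

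The other class mu genes averaged at most 120 CPM over the 7 livers. Gstm4 was at 187 and 102 CPM in WT and 94.9, 51.3, 81.1, 106 and 110 CPM in HET, where 3 HET livers lay below both WT livers. Its log2 fold change was -0.60 ± 0.38 (SE; edgeR, adjusted p = 0.609). Of the 6 class mu genes tested, 5 had a fitted log2 fold change below 0 and Gstm7 had 0.19 ± 0.52 (SE), with a median of -0.50 against 0.03 over all 4803 genes tested. None of the 6 passed the test at an adjusted p under 0.05 (0% of all 4803 genes did). Gstm5, counted at 0 and 8.76 CPM in WT and 8.90 to 17.5 CPM in HET, was below the filter.

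Gstz1 (chr12:87147165-87164723, plus strand) isomerises maleylacetoacetate in tyrosine breakdown and was the steadiest gene of the set. It read 793 and 870 CPM in WT and 1016, 686, 765, 1032 and 909 CPM in HET. Its coefficient of variation over the 7 livers was 14.9%, compared with 37.6% for Gstm1 and 93.9% for Ugt2b1. The WT values lay inside the HET range, and the log2 fold change was 0.17 (95% interval -0.40 to 0.74; edgeR, adjusted p = 0.878). Pomt2 overlaps Gstz1 on the other strand, and the use of strand in counting is not given. Reads from the stretch they share may therefore not be told apart, and whether it reaches the counted 3′ end was not examined.

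Gsta3 (chr1:21240589-21265661, plus strand), a class alpha enzyme known for detoxifying aflatoxin epoxide in the mouse, varied most among the abundant GST genes. It was at 799 and 426 CPM in WT and 1022, 572, 368, 657 and 1712 CPM in HET, with HET 5 highest and HET 3 lowest. The groups overlapped, with HET 1 and HET 5 above both WT livers and HET 3 below both. The log2 fold change was 0.56 ± 0.48 (SE; 95% interval -0.49 to 1.61; edgeR, adjusted p = 0.725). It was 1.17 without WT 1, 0.16 without WT 2 and 0.20 without HET 5. The stretch of 150 bases upstream of its start is printed because it holds the antioxidant response element core TGACNNNGC, the motif through which Nrf2 is known to act on GST genes.
Gsta3 promoter, GRCm38.p6 chr1:21240435-21240584, plus strand: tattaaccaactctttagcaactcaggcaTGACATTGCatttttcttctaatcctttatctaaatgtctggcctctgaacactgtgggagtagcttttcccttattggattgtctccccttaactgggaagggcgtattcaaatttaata
Capitals mark that core. Searched on both strands in the 250 bases before the start, the core was in 10.2% of 32851 RefSeq promoter windows and in 3 of the 67 windows of 56 members (4.48%), those of Gsta3, Gstm5 and Gstm7. A match describes the letters only, and the windows of neighbouring family members are related by descent.

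The theta class, known for acting on small halogenated compounds, supplied 2 of the 5 most abundant GST genes. Gstt2 was at 361 and 429 CPM in WT and 337, 261, 377, 310 and 181 CPM in HET, with only HET 3 above a WT liver, and its log2 fold change was -0.34 ± 0.32 (SE; edgeR, adjusted p = 0.749). Gstt1 was at 406 and 204 CPM in WT and 411, 177, 250, 351 and 369 CPM in HET, with a log2 fold change of 0.12 ± 0.35 (SE; edgeR, adjusted p = 0.936). Both theta genes overlapped between genotypes, and HET 5, high for Gsta3, was the lowest liver for Gstt2. Together with Gstm1, Gstz1 and Gsta3 these genes made up 77.0% to 84.4% of the GST counts of each liver.

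Gstp1 and Gstp3 had fitted changes of opposite sign. Gstp1 (chr19:4035407-4037985, minus strand), which is known to be higher in male than in female mouse liver, was at 213 and 155 CPM in WT and 244, 366, 316, 249 and 162 CPM in HET. In HET, 4 livers lay above both WT livers and HET 5 lay between them, giving a log2 fold change of 0.66 ± 0.38 (SE; 95% interval -0.13 to 1.46; edgeR, adjusted p = 0.568). Gstp3 (chr19:4057477-4059569, minus strand) was at 32.2 and 96.3 CPM in WT and 26.1, 13.9, 26.3, 11.3 and 30.8 CPM in HET. All 5 HET livers were below both WT livers, but WT 1 exceeded HET 5 by little, and WT 1 rested on 5 counts. Its log2 fold change was -1.50 ± 0.50 (SE; 95% interval -2.54 to -0.45; edgeR, adjusted p = 0.317). Without WT 2 it was -0.45 with an adjusted p of 0.934.

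The other tested GST genes of classes alpha, kappa, mu, omega and theta ran from 6.58 to 219 CPM in single livers. Gstk1, the mitochondrial member, was at 155 and 90.5 CPM in WT and 49.1 to 219 CPM in HET with a median of 83.8 CPM (log2 fold change -0.13 ± 0.51, SE). Gsta4 was at 122 and 99.2 CPM in WT and 13.2 to 173 CPM in HET with a median of 67.9 CPM (-0.44 ± 0.64, SE). Gsta2, another class alpha enzyme, was at 90.2 and 29.2 CPM in WT and 11.1 to 67.0 CPM in HET with a median of 30.2 CPM (-0.61 ± 0.65, SE). None of these passed the test, and their genotypes overlapped. HET 5 was the highest liver for 10 of the 24 tested members, among them Gsta3, Gsta4, Gstk1 and Gsto1, and for 21.1% of all genes tested.

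**Figure D3:**
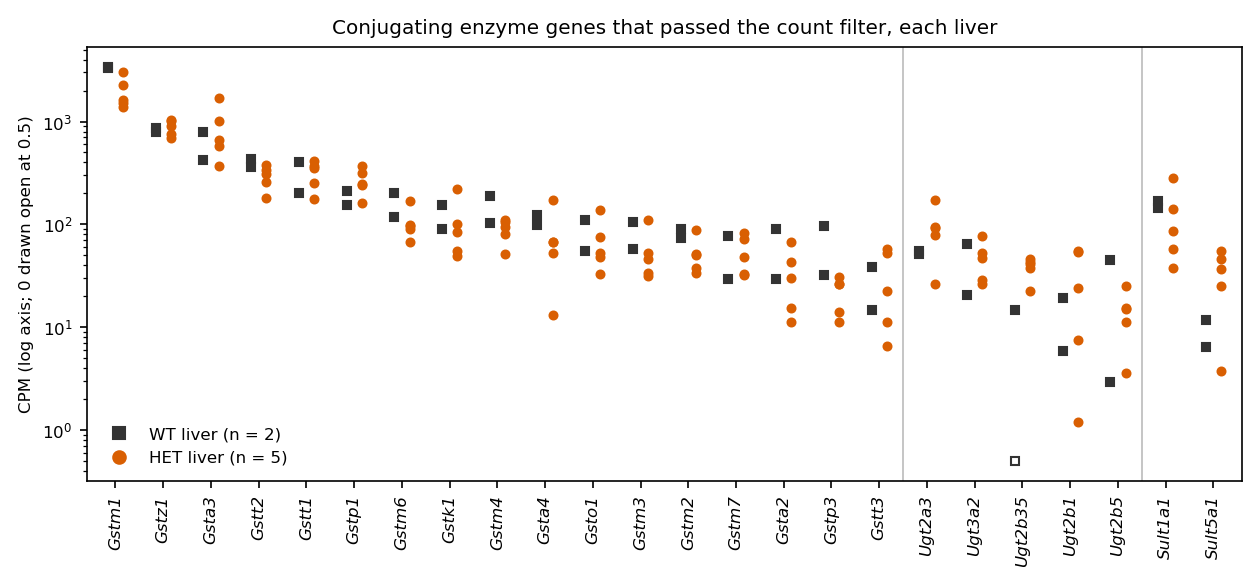
CPM on a log axis (y) of the 24 tested genes in each liver, ordered within family by mean level; squares are the 2 WT livers and circles the 5 HET livers, and an open square at 0.5 is a liver with 0 counts. Genotypes do not overlap for Gstm1, Gstp3 and Ugt2b35.

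Among the UGT genes, most counts came from Ugt2a3, Ugt3a2 and the Ugt2b cluster on chr5. Ugt2a3 (chr5:87324972-87337195, minus strand), which glucuronidates bile acids, was the highest. It was at 51.5 and 55.5 CPM in WT and 94.9, 92.9, 26.3, 79.3 and 171 CPM in HET, so that 4 HET livers lay above and HET 3 below both WT livers. The log2 fold change was 0.89 ± 0.54 (SE; edgeR, adjusted p = 0.595).

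Ugt2b35 (chr5:87000860-87013275, plus strand) had the smallest p among the 24 genes. It was at 0 and 14.6 CPM in WT and at 40.9, 45.7, 37.3, 22.7 and 43.3 CPM in HET, with every HET liver above both WT livers. The log2 fold change was 2.12 ± 0.70 (SE; 95% interval 0.66 to 3.59; edgeR, adjusted p = 0.315), and it did not pass the threshold. The WT level rests on 5 counts in WT 2, and the 0 of WT 1 allows up to 19.3 CPM. Without WT 2, where WT is a single liver at 0, the fitted value was 7.68 and depends on the fit's prior count.

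The other Ugt2b genes did not share that pattern. Ugt2b1 was at 19.3 and 5.84 CPM in WT and 54.0, 55.4, 24.1, 7.56 and 1.19 CPM in HET, with a log2 fold change of 1.52 ± 1.58 (SE; edgeR, adjusted p = 0.787). The HET livers lay on both sides of the WT livers, and the fitted value was 0.67 without WT 2 and 2.46 without WT 1. Its lowest value, from 2 counts, fell in HET 5, where Ugt2a3 was highest, and its WT values rest on 3 and 2 counts. Ugt2b5 was at 45.1 and 2.92 CPM in WT and 14.9, 25.0, 15.3, 11.3 and 3.56 CPM in HET (log2 fold change -0.42 ± 1.01, SE; edgeR, adjusted p = 0.918), so the WT livers bracketed every HET liver. The lower WT value is 1 count in WT 2, against 6 counts in HET 5. Ugt3a2, of a UGT family that uses other sugar donors, was at 64.4 and 20.4 CPM in WT and 26.4 to 77.1 CPM in HET with a median of 47.1 CPM (log2 fold change 0.40 ± 0.56, SE; edgeR, adjusted p = 0.853). Ugt2b34, Ugt2b36 and Ugt2b38 were counted at up to 51.0, 25.8 and 7.56 CPM in a liver and were not tested.

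Sult1a1 (chr7:126672865-126676432, minus strand), the main phenol sulfotransferase, held most of the SULT counts. It was at 168 and 143 CPM in WT and 141, 58.2, 85.5, 37.8 and 283 CPM in HET. In HET, 4 livers lay below both WT livers and HET 5 lay above them, and the log2 fold change was -0.25 ± 0.60 (SE; 95% interval -1.56 to 1.07; edgeR, adjusted p = 0.922). Sgf29 overlaps it on the other strand. Sult5a1 (chr8:123140192-123158315, minus strand) was at 6.44 and 11.7 CPM in WT and 46.5, 25.0, 54.8, 3.78 and 36.8 CPM in HET. In HET, 4 livers exceeded both WT livers, but HET 4, with a single count, was the lowest of the 7. The WT level of Sult5a1 rests on 5 counts, 1 in WT 1 and 4 in WT 2. The log2 fold change of Sult5a1 was 1.89 ± 0.83 (SE; 95% interval 0.15 to 3.64; edgeR, adjusted p = 0.449).

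The remaining sulfotransferases were at or near the floor. Sult2a8, which sulfates bile acids in mouse liver, was counted in every liver at 5.84 to 25.8 CPM and fell below the filter. Sult1c2 had 19 counts, all in HET 5, and Sult1d1 had 5 counts in 3 livers. Sult2a1 to Sult2a7, Sult3a1 and Sult3a2 were at 0 in all 7 livers, and several of them are known for higher levels in female mouse liver. Part of their 3′ windows also occurs in another member, from 0.741% for Sult2a7 to 78.9% for Sult2a5 and 85.6% for Sult2a2. With the counting of such reads not known, a 0 may not measure the transcripts that share most. The labels give no sex for the livers. Xist was at 0 in all 7, and Y-linked genes had 2 to 11 counts in each. Of 14 genes on a list of female-biased liver genes, 11 were at 0, the members Sult2a1, Sult2a2 and Sult3a1 included. The other 3 were not even across the livers, and the list summed to 163 CPM in WT 2 against 11.0 to 59.6 CPM in the other 6. Cyp2a4, a steroid hydroxylase known to be higher in female liver, was at 25.8 and 137 CPM in WT and 2.97 to 14.9 CPM in HET, all 5 below both WT livers (log2 fold change -3.41; edgeR, adjusted p = 0.0681). Acot3 was at 0 and 20.4 CPM in WT and 2.19 to 5.58 CPM in HET. The remaining gene of the 3 did not follow Cyp2a4 and Acot3. It was highest in HET 1, where it made up most of the list sum of 59.6 CPM. WT 2 also had the lowest sum of the male-biased liver genes, a list that includes Gstp1, with 2361 CPM against 3877 to 5858 CPM in the other 6. The part of sex-dependent expression in the member values, those of Gstp1 included, was not tested.

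Across the 24 tested genes, 0 were called at an adjusted p under 0.05 by edgeR's quasi-likelihood test, as were 0 of all 4803 genes (0% called). DESeq2 called 16 of the 4803 and 0 members. At an unadjusted p under 0.05 there were 4 members, or 16.7% of 24 against 10.3% of all genes. Ugt2b35 and Sult5a1 were higher, where 5.39% of all genes were, and Gstp3 and Gstm1 lower, where 4.96% were. Fitted log2 fold changes were above 0 for 11 members (52.1% of all genes) and below 0 for 13, with a median of -0.10 against 0.03 over all genes. By family the medians were -0.34 for 17 GST genes, 0.89 for 5 UGT genes and 0.82 for 2 SULT genes, and ranges crossed 0 in all 3. Genotypes did not overlap for 1 member with higher HET levels (4.17% of 24, against 6.95% of all genes) and for 2 with lower ones (8.33%, against 11.1%).

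**Figure D4:**
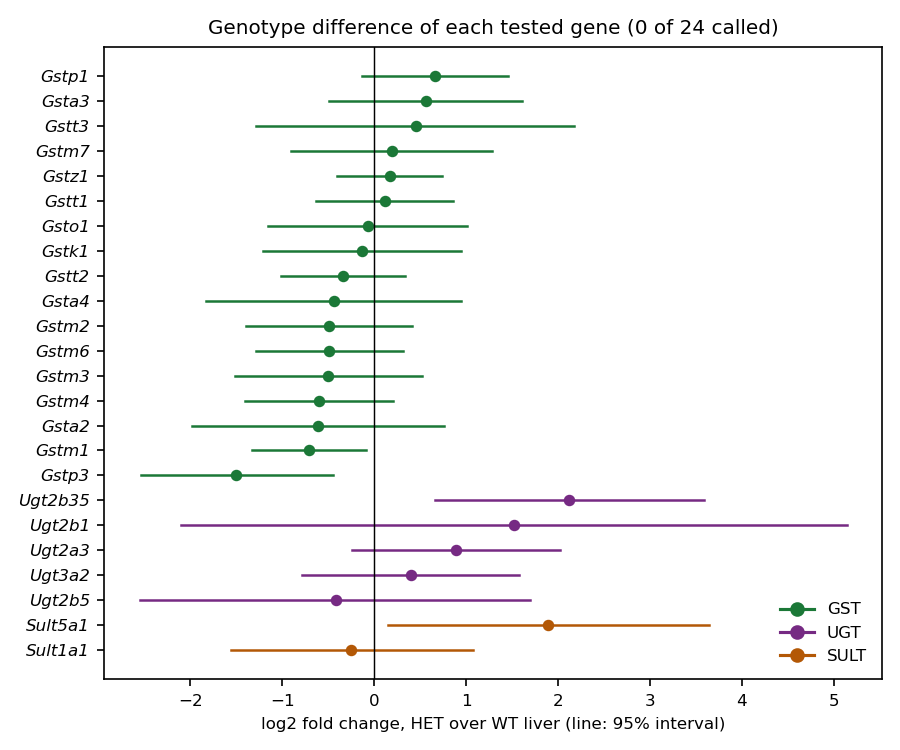
Log2 fold change of HET over WT liver (x axis) with its 95% interval for each of the 24 tested genes, coloured by family. Intervals leave out 0 for Gstm1, Gstp3, Ugt2b35 and Sult5a1, and none of the 24 passed the adjusted threshold.

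The median of the members depended on the WT livers. It was 0.53 over 27 members tested without WT 1 and -0.38 over 27 members without WT 2, with 0 called in either case. Without HET 5, 8 of 23 members had an unadjusted p under 0.05 (34.8%, against 13.7% of the 4232 genes tested), again with 0 called.

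The genes that feed or empty the conjugation pathway gave no call either. Of 15 genes for cofactor supply, 11 were tested, 3 with a log2 fold change above 0 and 8 below, with a median of -0.13. Gclc, the catalytic subunit of the rate-limiting enzyme of glutathione synthesis, was at a mean of 122 CPM in WT and 58.3 CPM in HET (log2 fold change -0.93 ± 0.47, SE; edgeR, adjusted p = 0.515). Cth, which makes cysteine by transsulfuration, was at means of 101 and 226 CPM (1.22 ± 0.64, SE; edgeR, adjusted p = 0.554). Both genes overlapped between genotypes, with HET 5 the highest HET liver at 116 CPM for Gclc and 515 CPM for Cth. Their HET medians were 41.6 and 208 CPM. Ugdh, which makes UDP-glucuronic acid, was at 39.2 and 32.9 CPM, and Papss2, which makes PAPS, at 17.3 and 11.8 CPM.

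Among 15 other detoxifying enzymes, 8 were tested and 6 had values above 0 (median 0.28). Mgst1, a membrane-bound glutathione transferase outside the symbol rule, was at 1869 and 1147 CPM in WT and 2971, 2320, 1587, 2543 and 3975 CPM in HET. In HET, 4 livers exceeded both WT livers, with HET 5 highest, and the log2 fold change was 0.89 ± 0.34 (SE; edgeR, adjusted p = 0.392). Its level was above that of Gstm1 in all 5 HET livers and below it in both WT livers, a comparison made after the values were seen and given without a test. Of 10 tested transporters, 5 lay on each side of 0 (median 0.10). Slco1a1, an uptake carrier for conjugated steroids and bile acids, was at means of 123 and 277 CPM (1.30 ± 0.34, SE; edgeR, adjusted p = 0.242). It is also on the list of male-biased liver genes, which includes the member Gstp1. Of that list 11 of 11 tested genes had values above 0 (52.1% of all genes did). An unadjusted p under 0.05 (edgeR) was found for 4 of them (10.3% of all genes), with 0 called. The single tested gene of the female-biased list, Cyp2a4, lay below 0. A shared direction was not particular to the male-biased list, since 14 of 14 tested acute-phase genes also had values above 0. The male-biased sum of WT 1, 4053 CPM, lay inside the HET range of 3877 to 5858 CPM. Of the 12 tested transcription factors known to act on these genes, 6 were above and 5 below 0 with a median of 0.00, and Nfe2l2, which encodes Nrf2, had -0.73 ± 0.62 (SE; edgeR, adjusted p = 0.716).

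In the pancreas, 31 of the 64 genes were counted, and the GST sums were smaller than in liver. GST genes summed to 1633 ± 827 CPM in WT (SD, n = 3), 1445 ± 590 CPM in HET (SD, n = 5) and 1725 ± 891 CPM in HOM (SD, n = 3). The highest pancreas GST sum, 2605 CPM in HOM 19, was below the lowest liver sum of 3985 CPM. UGT sums were 0 to 441 CPM and SULT sums 0 to 328 CPM, ranges that overlapped those of the livers. Across the tissues 24 genes were counted in both, 14 in liver alone, 7 in pancreas alone and 19 in neither. The tissues were tabled separately and differ in depth, so this is a description with no test.

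The leading genes differed between the tissues. Gstp3, at most 96.3 CPM in liver, had the highest mean of all members in the pancreas. It was at 603, 1118 and 562 CPM in WT, at 0, 1281, 8.29, 584 and 163 CPM in HET 9, 10, 11, 15 and 16, and at 644, 967 and 62.1 CPM in HOM. Acinar markers summed to only 1096, 173 and 149 CPM in the WT libraries. They were highest in HET 11, at 165021 CPM, where Gstp3 was at 8.29 CPM. HOM 19, with 15988 CPM of acinar markers, had Gstp3 at 967 CPM. The part of tissue make-up in the Gstp3 level was not tested. Gstp1, counted in every liver, was at 0 in all 11 pancreata, and so was Gstp2. All 3′ windows of Gstp1 occur in Gstp2, and how reads that match both were counted is not known. The limit of 0.998 CPM that 3005022 counts allow thus holds for Gstp1 only if such reads were counted. Gstt2 was at 480, 378 and 10.6 CPM in WT, 0, 730, 121, 658 and 99.9 CPM in HET and 419, 553 and 435 CPM in HOM, against 181 to 429 CPM in liver. Gstz1 was at 0, 756 and 642 CPM in WT, 303, 25.6, 77.6, 566 and 89.5 CPM in HET and 609, 39.5 and 256 CPM in HOM. Within the HET pancreata each of these 3 genes ran from 25.6 CPM or less to 566 CPM or more, and the genotypes overlapped.

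Gstm1, the leading gene of the liver, was counted in only 2 pancreata, at 278 CPM in HET 11 and 151 CPM in HET 16. Those are the libraries with 228516 and 192643 CPM of stomach mucosa markers and the 2 greatest depths. They counted 19 and 16 members against 3 to 11 in each of the other 9 libraries, and 10 members were counted in them alone. These included Sult2b1, a cholesterol sulfotransferase of epithelia, at 216 and 288 CPM. The part of stomach tissue and of depth in these counts was not tested.

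**Figure D5:**
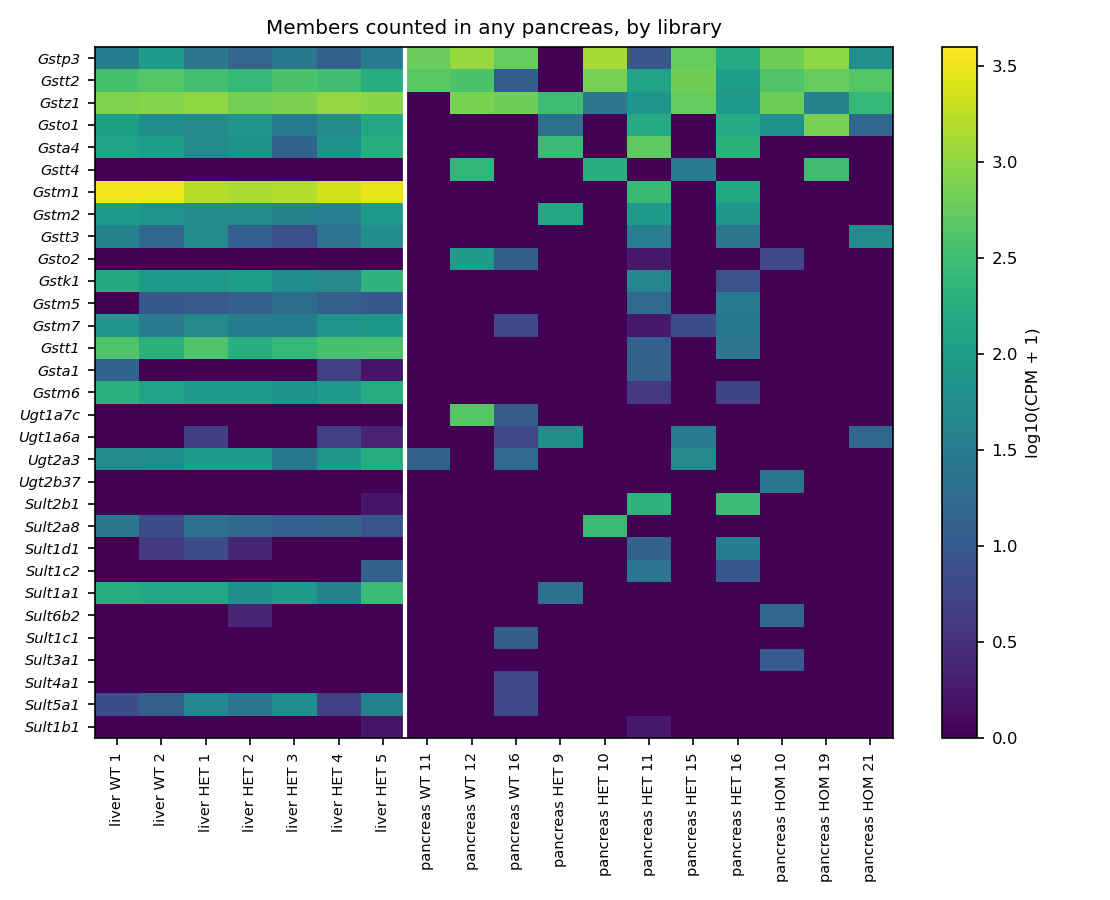
Log10(CPM + 1) (colour) of the 31 members counted in any pancreas (rows, by family) in the 7 livers and 11 pancreata (columns). Gstp3, Gstt2 and Gstz1 are counted in 10 of 11 pancreata, and Gstm1 in HET 11 and HET 16 alone.

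The pancreas allowed 7 members to be tested between genotypes, all GST: Gsta4, Gsto1, Gstm2, Gstp3, Gstt2, Gstt4 and Gstz1. With sex as a covariate, 0 of 7 were called in any of the 3 genotype comparisons, as were 0 of 3719 genes in each (0% called). Gsta4 and Gstm2 were at 0 in both WT and HOM, so HOM against WT could not test them. At an unadjusted p under 0.05, edgeR gave 3 of 7 members in HET against WT (13.9% of all genes), 1 for HOM over WT (4.97%) and 2 for HOM over HET (11% of all genes). Gsta4, Gsto1 and Gstm2 were at 0 in every WT library and passed the filter only through the libraries that counted them. These shares therefore say nothing about the members, and the p-values of these 3 genes give no support for a genotype difference. DESeq2 called 1 member, Gsto1, in HET against WT, among 183 of the 3719 genes.

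Gsta4, which conjugates the lipid peroxidation product 4-hydroxynonenal, came nearest to a call. It was at 0 in all 3 WT and all 3 HOM libraries and at 283, 502 and 203 CPM in HET 9, HET 11 and HET 16, with HET 10 and HET 15 at 0. The HET mean of 198 CPM was at least 22.0-fold higher than the 9.00 CPM that 0 counts over the WT group allow (edgeR, adjusted p = 0.0518). Gsta4 passed the filter only through the HET libraries that counted it. Neither this bound nor its p-values, here or below, therefore give support for a genotype difference. The 3 libraries with counts are also the 3 highest HET libraries for stomach mucosa and acinar markers, with 25575 CPM of stomach markers and 15838 CPM of acinar markers in HET 9. HOM 19, with 16837 and 15988 CPM of these marker sets, had no Gsta4 count, which allows up to 59.2 CPM there. The part of these tissues in the Gsta4 counts was not tested. Gsta4 was called with HET 15 left out (edgeR, adjusted p = 0.0324), where 92 of 3037 genes were called. It was also called with sex left out of the fit (edgeR, adjusted p = 0.0282), where 146 of 3719 were. It was not among the 4 members that could be tested without HET 11 and HET 16.

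Gsto1, an omega class enzyme that reduces dehydroascorbate, was at 0 in WT, at 20.2, 0, 156, 0 and 164 CPM in HET 9, 10, 11, 15 and 16 and at 68.3, 730 and 15.5 CPM in HOM. The HOM mean of 271 CPM rests on HOM 19, which had 37 counts of Gsto1 in a library of 50663, and was 41.9 CPM without it. Against WT the adjusted p was 0.957 for HOM and 0.0845 for HET (edgeR). Cfap43 overlaps Gsto1 on the other strand. Gstm2 was at 141, 86.7 and 80.5 CPM in the same 3 HET libraries as Gsta4 and at 0 in all others (edgeR, adjusted p = 0.147 for HET against WT). Gstp3, Gstt2, Gstt4 and Gstz1 had adjusted p-values of 0.898 to 1 in HET against WT (edgeR).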

How the data were processed

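RNA extracted with TRI reagent was made into bulk MARS-seq libraries, per the labels' protocols. The submitters' processing notes name cutadapt, STAR and the build mm10. Not given in the sources used here are tool versions, the counting method, strand use and barcode collapsing. The authors deposited whole-number counts for 55291 genes, 1 table per tissue, named as corrected without saying for what. All columns were assigned to samples from the labels (0 left over).

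CPM is a gene's counts per 1000000 counts of its library. Genotypes were compared in R 4.3.3 with edgeR 4.0.16, using filterByExpr, TMM scaling, the robust quasi-likelihood F test and Benjamini-Hochberg adjustment over all genes tested. Liver was fitted on genotype, pancreas on genotype and sex. The SE is the absolute log2 fold change over the square root of F. A gene is called at an adjusted p under 0.05. The script was tested on simulated data. DESeq2 1.42.0, other scalings and filters, a replicate block and each library left out were the alternatives. The liver's common biological coefficient of variation was 35.4% and the pancreas' 166%, with 5 and 7 residual degrees of freedom.

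The members and the gene lists were chosen with earlier results of these data known. Named genes were every called member, the 3 smallest p-values in each direction in liver, the 5 highest means of each family in liver and of all members in pancreas; other members named were chosen after their values were seen. Limits of 3 counts and Wilson 95% intervals cover counting error only. All 64 members matched GENCODE M21 (GRCm38), the source of positions and transcripts, and 56 had a RefSeq promoter window on GRCm38.p6.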

Additional observations from a re-analysis of the deposited data

Results flagged for a closer look

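In 29 groups of 5 HET libraries (18 named members in liver, 5 in pancreas and 3 family sums in each tissue), 2 had a library whose gap to the nearest other exceeded 0.71 of the group's range, where chance flags about 1 in 20. In liver, Sult1c2, a sulfotransferase known mainly from stomach and kidney, was at 11.3 CPM in HET 5 and at 0 in the other 4 HET livers; HET 5 is the deepest liver. In liver, Sult1d1, which sulfates catecholamines, was at 5.58 CPM in HET 1 and at 0 to 1.39 CPM in the other 4, a value that rests on 3 counts.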

How the results depend on the processing

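All liver alternatives called 0 members, named ones included, so that call held over scalings, filters, DESeq2 and every liver left out. The count over all genes tested moved from 0 to 16 with DESeq2, 57 with no filter on low counts and 6 with a minimum mean of 10 CPM, and ran from 0 to 6 with each liver left out (4 without WT 1, 1 without HET 1, 6 without HET 5). Of the 15 named members tested, 12 kept the sign of their log2 fold change under every alternative that gave a value, and 5 of 205 values changed sign. Gstt1 became -0.01 under a replicate block (the 4 livers numbered 1 and 2) and ran from -0.32 to 0.77 with a liver left out, Ugt2b5 became 0.33 under the block and ran from -1.61 to 2.37, and Ugt3a2 ran from -0.36 to 1.39. The difference in summed CPM, HET minus WT, ran from -2005 to -967 for GST, 38.3 to 138 for UGT and -51.7 to 20.0 for SULT with each liver left out, all within 1 SD of the HET livers from the full value.

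In the pancreas, the members called in HET against WT moved from 0 to 1 with DESeq2 (Gsto1, among 183 genes called), to 1 without the sex term (Gsta4, among 146), ran from 0 to 1 with each library left out (Gsta4, without HET 15, among 92), and reached 4 with a replicate block (Gsta4, Gstm1, Gsto1 and Sult2b1, among 554 genes called). These 4 members were at 0 in every WT library and passed the filter only through the libraries that counted them. Their calls therefore give no support for a genotype difference. Both other pancreas comparisons gave 0 members under each alternative run, which for them included no block. The block pairs samples that share only a number: deviations of same-numbered samples correlated at -0.03 and -0.03 in liver and 0.01 and -0.05 in pancreas. In liver it changed no call of a member. The cause of these shifts was not tested. Depth limits single-liver values below 19.3 CPM and single-pancreas values below 60.6 CPM.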
